A study of Drosophila melanogaster with 120 samples.

Results

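Whole adult males of 6 hemiclonal lines of Drosophila melanogaster whose names begin with H (H07, H09, H10, H12, H13 and H14) were compared with males of the 9 lines whose names begin with P (P07, P13, P15, P18, P22, P26, P48, P50 and P56). The groups were taken from the line names in the labels and no measured value was used to form them. The comparison used 60 of the 120 arrays of the series, 24 of H males and 36 of P males, and the mean of the 4 male arrays of a line was 1 replicate, so that 6 lines stood against 9. What the letters H and P stand for is not given in the sources used here, nor is the fitness class of a line. All 15 lines are haplotypes drawn from 1 outbred laboratory population, LHM, and were chosen by the study for their fitness in males and in females. A hemiclonal line is a single haploid genome, apart from the small chromosome 4, that is carried by every fly of the line and is set against chromosomes drawn at random from the base population. The males were bred from double-X mothers, so their X chromosome was that of the line and their Y chromosome came from the mother's stock. The males of every line were frozen at Day 14, after 4 days as adults, and had spent 24 h with LHM females from Day 12 before they were held apart for 20 h, sorted into groups of 6, and frozen 4 h later. The whole body was extracted, so that fewer cells of a type and less RNA per cell cannot be told apart.

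A hemiclonal design exposes the additive effects of a haplotype, because flies of a line share that haplotype while the rest of their genome varies. Males have a single X chromosome, and a variant on it acts without a partner copy. Differences in RNA level between inbred or hemiclonal fly lines commonly lie in enzymes of detoxification and digestion, in immune and stress genes, and at single genes whose own regulatory region differs between haplotypes.

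The 15 male line means separated by prefix on the first principal component over all transcripts, which held 21% of the variance. The scores of the H lines ran from 3.51 in H12 to 17.98 in H07 and those of the P lines from -13.82 in P26 to -1.98 in P50, with no overlap. The second component held 10.6% of the variance and set H07 (13.85) and H12 (-14.28) at opposite ends of the H lines. For each of the 15 lines, the line with the most similar male mean had the same prefix. Single arrays grouped by line as well, since the mean correlation with the arrays of a line was highest for the array's own line in 59 of 60 cases. Array medians were close, with line means of 6.32 to 6.39 on the log2 scale in H lines and 6.36 to 6.40 in P lines (exact permutation test over lines, two-sided, p = 0.152, 0.252 after adjustment over 9 of the single measures tested). That adjustment left out the 2 list means also tested, those of ribosomal protein transcripts and of yolk, eggshell and female germ line transcripts. The arrays were hybridised in several batches, but the batch of an array is not given in the sources used here, and its part in the separation was not tested.

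**Figure D1:**
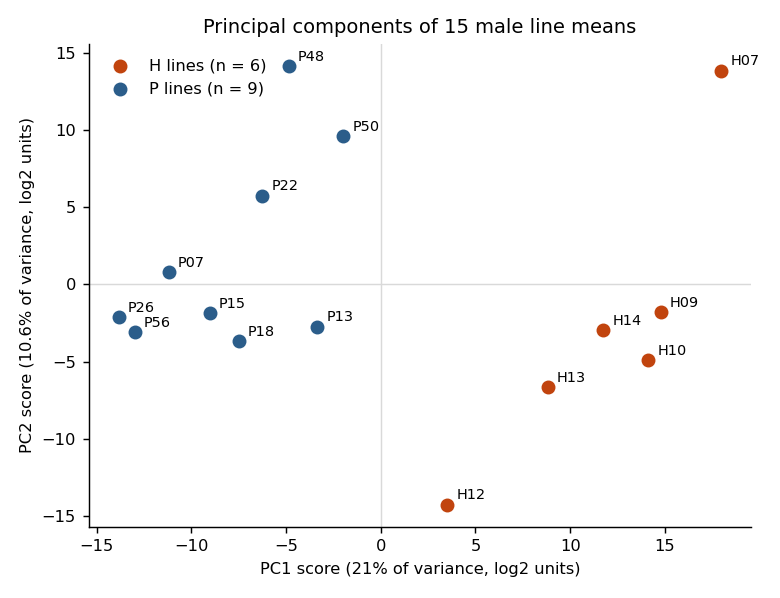
Scores of the 15 male line means on the first and second principal components (log2 units), with the 6 H lines in red and the 9 P lines in blue. The H lines lie at 3.51 or above on the first component and the P lines at -1.98 or below, while H07 and H12 are the ends of the H group on the second.

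Of 18769 transcripts, 716 differed between H and P males at an FDR of 0.05 (limma on line means), which is 3.81% of those tested. Of these, 187 were higher in H lines (0.996% of those tested) and 529 were lower (2.82%). Most differences were small. The median of the called differences was 0.33 on the log2 scale for the transcripts higher in H and -0.26 for those lower in H, 396 of the 716 were under 0.3 in size, and 20 reached a factor of 2, with 13 higher and 7 lower in H. The median difference of all transcripts was -0.0044. The share called depended on level. It was 0.885% of the 6896 transcripts with a male mean under 5, and 4.67% to 15.8% in the level classes above. The share of 3.81% includes these low transcripts, so lists of expressed genes can exceed it through their level alone. In a description that needs no variance model, all 6 H line means lay above all 9 P line means for 53 transcripts (0.282%) and below them for 176 (0.938%), and 213 of these 229 were among the 716. The split between directions depended on the scaling. Higher calls were 26.1% of the total as deposited and 36.2% (225 of 622) with each array centred on its median, whereas centring on the ribosomal protein transcripts, which were themselves lower in H, moved the median of all transcripts to 0.13 and gave 6823 higher and 234 lower calls. Differences are therefore best read against that of all transcripts. Centring shifts every transcript of an array by the same amount, so a list keeps its distance from the median of all transcripts under it.

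The number of calls also depended on single lines. Without H07 there were 461 calls, without H09 416, without H10 427, and without the arrays numbered replicate 1 there were 426, whereas 1051 were called without H12. The count of transcripts without overlap was 404 without H12 and 386 without H13. Over the 716 called transcripts, H12 lay nearer to the P mean than to the H mean for 149 and H13 for 140, against 39 to 64 for each of the other 4 H lines and 27 to 93 for each P line. Thus H12 and H13 were the H lines least unlike the P lines. Every one of the 716 kept its direction when a line or a replicate number was left out, and 322 were called under each of the 15 omissions of a line.

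Male samples held traces of transcripts that females express. The list of 25 yolk, eggshell and female germ line transcripts had a mean level of 5.06 to 5.61 in H lines and 4.84 to 5.45 in P lines. Of the 25, 20 were higher in H males and 5 lower, with a median difference of 0.06, and none differed at an FDR of 0.05. Yp1, a yolk protein gene, ranged from 5.86 to 8.35 in H lines and from 4.74 to 7.71 in P lines, against at least 14.32 in every female array. Of the male arrays, 9 of 24 from H lines and 9 of 36 from P lines had Yp1 above 8, and without these arrays 483 transcripts were called, of which 410 were among the 716. That omission cost 19 of the 65 transcripts chosen for naming their call, each with its direction kept. With the mean of the female list as a covariate 560 transcripts were called, 477 of them among the 716, and 12 of the 65 were not called, again with their direction kept. The germ plasm gene osk, in 1 of its transcripts, stayed near the bottom of the range, between 3.15 and 3.75 in H lines and 2.88 and 4.06 in P lines. The male markers were high in both groups, with SP, the sex peptide of seminal fluid, at 13.75 to 13.96 in H lines and 13.65 to 13.84 in P lines.

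The clearest single difference was CG2924, a predicted ubiquitin-conjugating enzyme on the X chromosome. Its lowest, median and highest line means were 8.39, 8.52 and 8.60 in H males and 7.25, 7.40 and 7.50 in P males. The groups were separated by a gap several times their own spread, and the difference was 1.13 (SE 0.05), or 2.19-fold (adjusted p = 8.7e-10). CG11034, on 2L, had 7.43, 7.93 and 8.18 in H males and 6.32, 6.58 and 6.95 in P males, a difference of 1.22 (SE 0.11, adjusted p = 3.6e-05). In both genes every H line stood above every P line. The same was true of CG14419, on the X, whose line means were 5.92 to 6.87 in H males and 4.31 to 5.59 in P males (difference 1.52, SE 0.18, adjusted p = 0.00047).

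The largest fitted differences were those of an adjacent pair of predicted serine proteases on the X, CG1304 and Ser6, whose line means fell into separate levels. CG1304 had 7.32, 8.02 and 8.45 as its lowest, median and highest values in H males. In P males, 8 lines lay between 3.56 and 3.80, near the bottom of the array's range, and P50 stood at 8.91, above every H line. The difference of means was 3.69 (SE 0.67, adjusted p = 0.0064) and 4.27 without P50, and its size is uncertain because the lower level is near the bottom of the range. Ser6 lay between 9.70 and 10.11 in H males, whereas P26 had 3.89, P50 had 9.65 and the other 7 P lines had 6.61 to 7.02, so that the groups did not overlap (difference 3.04, SE 0.55, adjusted p = 0.0057). The measured gene next to them, CG11227, was also higher in H, with 5.48 to 5.95 in H males and 4.04 to 5.41 in P males, and P50 was again the highest P line (difference 1.28, SE 0.17, adjusted p = 0.001). For these 3 neighbours P50 carried the levels of an H line or close to them.

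Other leading genes had the same kind of pattern with other lines as the exception. The gene wgn encodes wengen, a receptor of the tumour necrosis factor family. It lay between 8.55 and 8.87 in H males and between 6.98 and 7.35 in 8 of the 9 P lines, while P18 had 8.85 (difference 1.41, SE 0.22, adjusted p = 0.0025). Muc4B, a mucin gene, was at 5.26 to 5.68 in 5 H lines and at 3.27 to 3.59 in 8 P lines, with the places exchanged in H14 (3.44) and P07 (5.52). Its difference of 1.44 (SE 0.36, adjusted p = 0.037) was not called once any 1 of 12 lines was left out, with an adjusted p of up to 0.09. The lower level is near the bottom of the range, so the size is uncertain. In females Muc4B was far higher and alike, with means of 8.90 in H and 8.88 in P lines (difference 0.02, adjusted p = 0.96). CG32643 was nearly constant in H males, at 9.96 to 10.10, whereas in P males 3 lines (P18, P26 and P50) had 9.30 to 9.59 and 6 had 7.61 to 7.96 (difference 1.66, SE 0.30, adjusted p = 0.0059). A second transcript of CG32643 did not pass (0.07, adjusted p = 0.23), nor did a second transcript of CG11227 (0.06, adjusted p = 0.70). This was common, since 59 called genes had several transcripts and only 7 of them had 2 or more called. In 34 of the 59 all transcripts had the same sign. A difference in 1 transcript is therefore not always that of the gene as a whole.

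**Figure D2:**
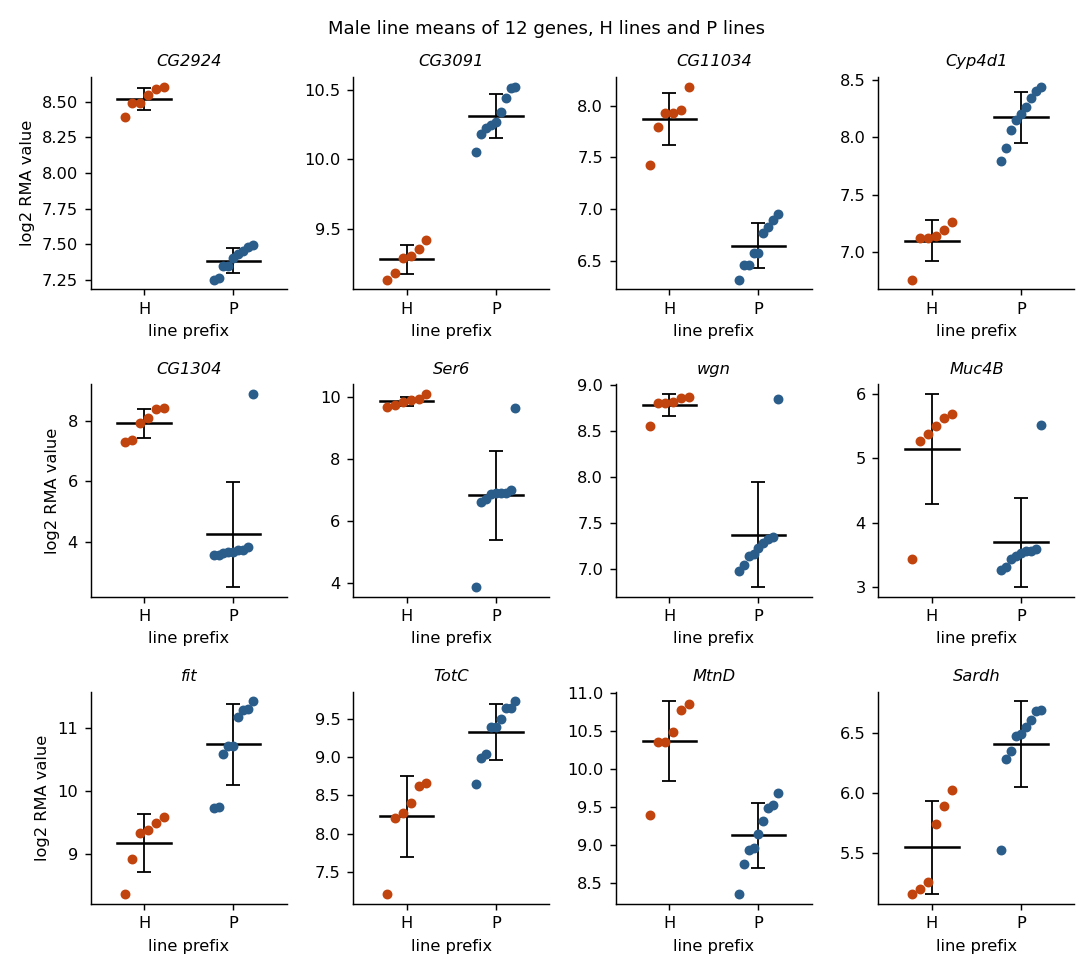
Male line means (log2 RMA values, 1 point per line) of 12 genes in the 6 H lines (red, left) and the 9 P lines (blue, right), with the group mean and SD; the vertical axes differ and do not start at 0. CG2924, CG3091, CG11034 and Cyp4d1 separate the groups without overlap, CG1304, wgn and Muc4B show 2 levels with a single P line at the upper one, and in MtnD and Sardh a single line of 1 group reaches into the other.

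MtnD, which encodes a metallothionein, a small protein that binds copper and other metals, was higher in H males at 9.39, 10.42 and 10.86 than in P males at 8.35, 9.15 and 9.69 (difference 1.24, SE 0.22, adjusted p = 0.0058). The low value of 9.39 was that of H09, which fell within the P range, and the other 5 H lines lay above every P line. CG6912 had line means of 6.22 to 8.03 in H males and 5.40 to 6.48 in P males (difference 1.52, SE 0.27, adjusted p = 0.0052). The long non-coding RNA lncRNA:CR40465 had 6.86 to 7.73 in H males and 4.91 to 7.31 in P males, and its difference of 1.50 (SE 0.36, adjusted p = 0.031) lost the call without any 1 of 7 lines (adjusted p up to 0.074). CG34290, the next gene after these 12 and named after its value was seen, differed by 1.01 (adjusted p = 0.035). Of these 12 genes with the largest excess in H, 8 were on the X, which held 2188 of the 13543 transcripts placed on a chromosome. CG11227, Ser6 and CG1304 among them were adjacent and shared P50 as the highest P line, so they may not be separate differences. Of the 12 genes lowest in H, only CG6106, CG3091, Cyp4d14 and Cyp4d1 were on the X.

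Among genes lower in H males, fit had the largest difference. It is a gene of the head fat body, known for its part in feeding on protein and for its higher level in females. Its lowest, median and highest values were 8.36, 9.36 and 9.59 in H males and 9.73, 10.71 and 11.42 in P males, a difference of -1.56 (SE 0.28, adjusted p = 0.0057), or 2.95-fold lower. Every H line lay below every P line. TotC, a Turandot gene whose product is released into the haemolymph under stress, had 7.21, 8.34 and 8.66 in H males and 8.65, 9.40 and 9.73 in P males (difference -1.10, SE 0.21, adjusted p = 0.0084). The groups touched at their edges, and without the arrays numbered replicate 1 the adjusted p of TotC was 0.087. CG7567 differed by -1.09 (SE 0.27, adjusted p = 0.037), with 7.43 to 9.72 in H males and 8.70 to 10.05 in P males, and was not called without any 1 of 10 lines (adjusted p up to 0.088).

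CG3091, predicted to encode a lipid-binding protein of the CRAL-TRIO family, lies near CG2924 on the X and ran the other way. Its values were 9.14, 9.30 and 9.42 in H males and 10.05, 10.27 and 10.52 in P males (difference -1.03, SE 0.07, adjusted p = 1.2e-06). CG3071, which lies between them and beside CG2924, was lower in H as well (-0.69, adjusted p = 0.00047), so that this stretch of the X held differences in both directions. Of the other genes among the 12 lowest, CG4408 (-0.98, SE 0.11, adjusted p = 0.00019), CG6106 (-0.85, SE 0.08, adjusted p = 4.1e-05), CG31664 (-0.81, SE 0.12, adjusted p = 0.0019) and CtsL3 (-0.89, SE 0.13, adjusted p = 0.0015), named for cathepsin L, a lysosomal protease, separated the groups without overlap. CG31091 overlapped, with 6.59 to 7.80 in H males and 7.60 to 8.99 in P males (difference -0.99, SE 0.22, adjusted p = 0.021, and 0.056 without H10). Sardh, which encodes sarcosine dehydrogenase of one-carbon metabolism, had 5.16 to 6.03 in H males and 6.28 to 6.69 in 8 P lines, with P26 at 5.53 (difference -0.86, SE 0.18, adjusted p = 0.014). A transcript with no annotated gene, chosen after its value was seen, was also lower by more than a factor of 2 (-1.21, adjusted p = 0.0041).

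Cytochrome P450 genes, which encode oxidases of detoxification and of hormone and lipid metabolism, were called more often than the whole array, with 1 higher and 7 lower in H of 85 transcripts (9.41%, against 3.81% of all transcripts). The median difference was -0.09, against -0.0044 for all transcripts, and with arrays centred on ribosomal protein transcripts it was 0.05 against 0.13. Cyp4d1 had 6.76, 7.13 and 7.26 in H males and 7.79, 8.21 and 8.44 in P males (difference -1.08, SE 0.10, adjusted p = 3.6e-05). Cyp4d14, close to it on the X, had 7.31, 7.86 and 8.37 in H males and 8.05, 8.93 and 9.66 in P males (difference -1.03, SE 0.20, adjusted p = 0.009). Cyp4d2, next to Cyp4d14 in the measured order, went the other way, with 9.85 to 10.13 in H males and 9.53 to 9.82 in P males (difference 0.32, SE 0.05, adjusted p = 0.0022), and so this cluster of X-linked genes held both directions. Away from the X, Cyp12a4 on 3R, a mitochondrial P450 known for its part in resistance to the insecticide lufenuron, had 10.86 to 11.23 in H males and 11.37 to 11.56 in P males (difference -0.42, SE 0.05, adjusted p = 0.00082). The other lower calls were Cyp4ac2, Cyp6u1, Cyp6v1 and Cyp9f2, named after their values were seen, at -0.12 to -0.46. The number of lower calls was 4 without H09, H10, H14, P56 or replicate 1, 4 without both H07 and H12, 5 without the arrays of high Yp1, and between 5 and 10 otherwise, the highest being without H13.

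Other enzymes of detoxification were also called in part. Of 35 transcripts of UDP-glycosyltransferases, which conjugate sugars to such products, 3 were lower in H and none was higher (8.57%, against 3.81% of all transcripts). Their median of -0.04 became 0.10, against 0.13 for all transcripts, when arrays were centred on ribosomal protein transcripts. Ugt35C1 had 9.45 to 10.02 in H males and 10.05 to 10.48 in P males (difference -0.53, SE 0.09, adjusted p = 0.0044), and its groups did not overlap. Ugt303A1 (-0.28, adjusted p = 0.0062) and Ugt37C2 (-0.22, adjusted p = 0.017) were the others, and both missed the threshold without replicate 1 (adjusted p = 0.14 and 0.13) and without the arrays of high Yp1 (0.25 and 0.14). Of 36 glutathione S-transferase transcripts 2 were called (5.56%, against 6.12% of transcripts with a male mean of 7 to 9, where the list mean lay). Of these, GstS1 was higher in H (0.16, adjusted p = 0.029) and GstE10 lower (-0.46, adjusted p = 0.048). Neither held when lines were left out, with adjusted p up to 0.075 and 0.11. Of 13 carboxylesterase transcripts, alpha-Est8 alone was called (7.69%, difference -0.21, adjusted p = 0.019, and 0.053 without H09).

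Genes of the fat body, the organ of storage and of haemolymph protein synthesis, gave 5 lower calls in H and none higher among 25 transcripts (20%, against 3.81% of all transcripts). The median difference of the list was -0.08, or 0.06 against 0.13 for all transcripts with centring on ribosomal protein transcripts. Besides fit, these were 2 transcripts of Tsf1, and Apoltp and Mtp. Tsf1 encodes transferrin, the iron carrier of the haemolymph, and had 8.74, 8.99 and 9.10 in H males and 9.26, 9.48 and 9.72 in P males (difference -0.52, SE 0.07, adjusted p = 0.00081). Its second called transcript differed by -0.27 (adjusted p = 0.03), and the remaining one did not pass (-0.05, adjusted p = 0.41). Apoltp, a lipoprotein that transfers lipid between tissues and circulating particles, had 10.18 to 10.61 in H males and 10.67 to 10.92 in P males (difference -0.38, SE 0.07, adjusted p = 0.0075). Mtp, the microsomal triglyceride transfer protein needed to load lipid on lipoproteins, differed by -0.28 (SE 0.06, adjusted p = 0.011, and 0.065 without replicate 1). Thus the called members of this list included an iron carrier and both a lipid carrier and the factor that loads such carriers.

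Cytoplasmic ribosomal protein genes showed small differences, mostly of the same sign, from -0.18 to 0.19. The list held 34 genes and not every gene of this kind, since RpL37-1, called on the X, was not in it. Of 40 transcripts, 8 were lower in H and none higher (20%, against 3.81% of all transcripts), and 36 of 40 had a negative difference. The list median was -0.11 (-0.09 with arrays centred on their median, and 0.03 against 0.13 for all transcripts with arrays centred on these transcripts themselves). The mean level of the list was 11.74, 11.78 and 11.85 as lowest, median and highest in H lines and 11.85, 11.87 and 11.92 in P lines, which overlapped at the edge only. RpS21, of the small subunit, had 13.43 to 13.63 in H males and 13.63 to 13.75 in P males (difference -0.18, SE 0.03, adjusted p = 0.0097). RpLP0, of the ribosomal stalk, differed by -0.18 (SE 0.04, adjusted p = 0.026), and RpS30 by -0.12 (SE 0.03, adjusted p = 0.025), a difference that was 0.01 and not called with arrays centred on the ribosomal protein transcripts. These signals are near the top of the array's range, where many transcripts were called lower. Of the 221 transcripts with a male mean of at least 13, 3 were higher and 32 lower in H (15.8%), although their median difference was -0.01 and those of the other level classes lay between -0.02 and 0.0010. The calls rested on few lines, being 1 without H07 or H09, 2 without H10 or replicate 2, 3 without P26 or P56, 4 without P07 or replicate 1, 5 without P15 or P50, and 13 without H13. Without both H07 and H12 no transcript of the list was called, while the median was -0.10, and 4 were called without the arrays of high Yp1. With the female list as a covariate 1 was called and the median was -0.11.

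Families that serve translation, added after values had been seen, showed the same sign in most members. Of all transcripts, 47.7% had a positive difference. Of 71 mitochondrial ribosomal protein transcripts, mRpS28, mRpL49, mRpS22 and mRpL22 were lower in H (5.63%, against 3.81% of all transcripts). Their differences were -0.22, -0.16, -0.10 and -0.13 (adjusted p = 0.016 to 0.042). Of transcripts with a male mean of 7 to 9, where the mean of this list lay, 6.12% were called. A negative difference was found for 54 of the 71, and the median was -0.07. It was 0.07 with arrays centred on ribosomal protein transcripts, when mRpS22 and mRpL22 also changed sign. Of 32 transcripts of aminoacyl-tRNA synthetases, which charge tRNAs with amino acids, 24 had a negative difference, with a median of -0.12, or 0.02 with that centring. Called lower (12.5%) were ArgRS, SerRS, AsnRS and AlaRS (-0.24, -0.15, -0.14 and -0.19). The last 3 of these lost the call without any 1 of 11 to 13 lines. Without the arrays of high Yp1, no mitochondrial ribosomal protein transcript and 1 tRNA synthetase transcript were called, and with the female list as a covariate 2 and 1. Of 44 translation initiation factor transcripts, eIF2Bdelta, a subunit of the exchange factor that recharges eIF2, was the lowest in p, with 7.65, 7.69 and 7.80 in H males and 7.87, 8.05 and 8.12 in P males (difference -0.32, SE 0.04, adjusted p = 0.001). The factors eIF2D (-0.21), eIF3g1 (-0.28) and eIF3b (-0.19) were also lower, whereas eIF3d2 was higher (0.43, SE 0.09, adjusted p = 0.014). The calls were 11.4% of the initiation factor transcripts, of which 27 had a negative and 17 a positive difference. The median of the initiation factors was -0.05, or 0.08 with arrays centred on ribosomal protein transcripts. None of 30 proteasome transcripts was called, 20 had a negative difference, and their median was -0.01. The proteasome list thus lay close to the median of all transcripts, while the lists of translation lay below it. The values with centring repeat this and add no separate evidence, since centring shifts all transcripts of an array alike.

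**Figure D3:**
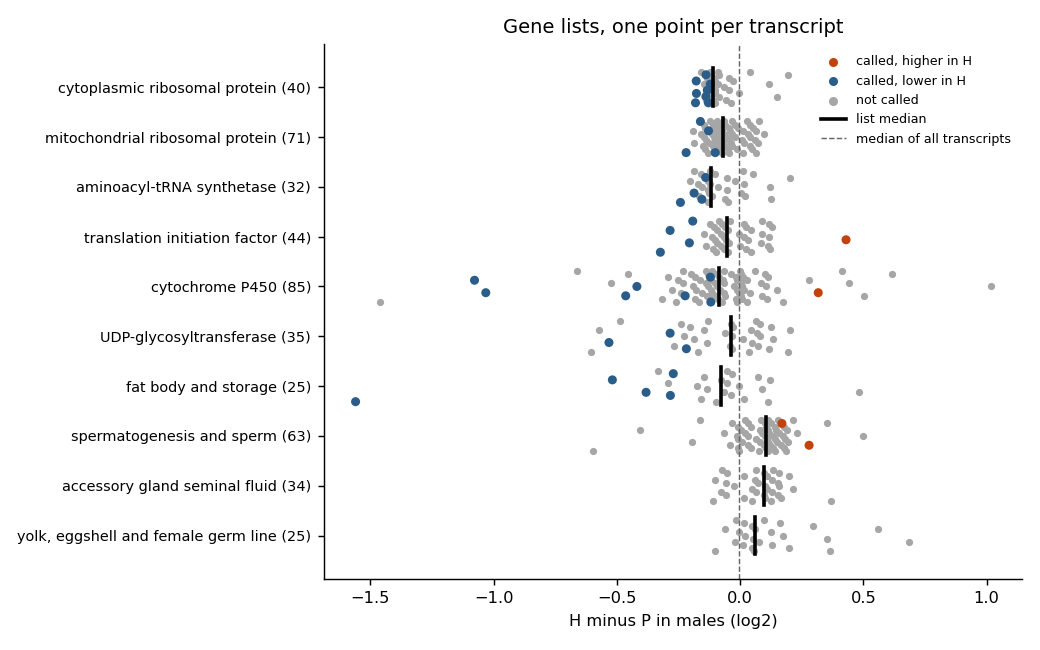
Differences H minus P in males (log2) for the transcripts of 10 gene lists, 1 point per transcript with its number in brackets, coloured where called at an FDR of 0.05; black bars are list medians and the dashed line is the median of all transcripts. The lists of translation lie at medians of -0.12 to -0.05, which become 0.02 to 0.08 against 0.13 for all transcripts when arrays are centred on ribosomal protein transcripts, and the sperm and accessory gland lists lie at 0.11 and 0.10.

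Genes of male reproduction had mostly positive differences, and most of these were not called. Of 63 transcripts of spermatogenesis and sperm, 51 were higher in H and the median was 0.11. Of the 63, 2 were called (3.17%, against 3.81% of all transcripts), both higher in H, as were 0.996% of all transcripts. They were djl (0.28, SE 0.07, adjusted p = 0.045), a gene of the sperm tail, and Pglym87 (0.17, SE 0.04, adjusted p = 0.046), a phosphoglycerate mutase of testis. Both lost the call without any 1 of 9 or 13 lines, and 8 were called without H12. Of 34 accessory gland transcripts, whose proteins are passed to the female in seminal fluid, 26 were higher in H with a median of 0.10 and none was called (smallest adjusted p = 0.05018). The mean level of the sperm list was 8.96 to 9.33 in H lines and 8.90 to 9.20 in P lines, and that of the accessory gland list 11.64 to 11.91 in H lines and 11.62 to 11.84 in P lines. Hence both lists overlapped widely between the prefixes. With arrays centred on ribosomal protein transcripts, 38 sperm and 23 accessory gland transcripts were called higher, with medians of 0.24 and 0.23 against 0.13 for all transcripts. With the female list as a covariate 1 and 4 were called higher, and with all 60 arrays and line as a random block 14 and 5. None of 8 transcripts of the ejaculatory duct and bulb and none of 9 of the Y chromosome was called.

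In the piRNA pathway, which silences transposons in the germ line, 2 of 26 transcripts were called (7.69%, against 3.81% of all transcripts). The gene del, which licenses transcription of piRNA source loci, was higher in H males at 6.26 to 7.06 than in P males at 5.68 to 6.36 (difference 0.57, SE 0.13, adjusted p = 0.023, and 0.059 without H07). The gene mino, an acyltransferase needed for piRNA production, was lower by 0.21 on the log2 scale (adjusted p = 0.018). Of 28 transcripts of heat shock, Turandot and metal stress 3 were called (10.7%). Hsp60D, a chaperonin, joined MtnD among the higher (0.55, SE 0.12, adjusted p = 0.022, and 0.057 without H07), and TotC was the lower one.

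In the circadian pathway, 3 of 16 transcripts were called (18.8%, against 3.81% of all transcripts). Pdfr encodes the receptor of the clock neuropeptide PDF, and had 5.79, 5.85 and 5.98 in H males and 6.16, 6.22 and 6.37 in P males (difference -0.36, SE 0.04, adjusted p = 0.00011), with no overlap. The gene of the neuropeptide itself, Pdf, was lower as well, with 7.79 to 7.93 in H males and 7.83 to 8.29 in P males (difference -0.25, SE 0.06, adjusted p = 0.026, and 0.065 without H07), so ligand and receptor had the same sign, although Pdf overlapped. The clock repressor vri was higher in H, at 9.85 to 9.99 against 9.55 to 9.78 in P males (difference 0.21, SE 0.04, adjusted p = 0.0064), and its adjusted p without the arrays of high Yp1 was 0.26. The list median was -0.04, or 0.09 against 0.13 for all transcripts when arrays were centred on ribosomal protein transcripts.

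Among 41 digestive enzyme transcripts 3 were called (7.32%, against 3.81% of all transcripts), with a median of 0.05. LysS, a lysozyme of the gut, was higher with Ser6, at 5.73 to 6.20 in H males and 5.43 to 5.69 in P males (difference 0.32, SE 0.06, adjusted p = 0.012). Jon74E, a protease of the midgut, was lower (-0.37, SE 0.09, adjusted p = 0.033, and up to 0.082 without 1 line). Among 38 immune transcripts 1 was called (2.63%). It was PGRP-SB1, an amidase that cuts peptidoglycan (-0.52, SE 0.13, adjusted p = 0.035, and up to 0.082 without 1 line). Of 50 odorant-binding transcripts 2 were called (4.0%), of which Obp19b was higher (0.36, adjusted p = 0.016) and Obp83ef lower (-0.43, adjusted p = 0.019), and of 104 cuticular protein transcripts 1 was called (0.962%), Cpr100A, which was lower (-0.50, adjusted p = 0.019). None of 185 odorant and taste receptor transcripts was called, and most of these lay near the bottom of the range, with list means of 3.70 to 3.74 in H lines and 3.68 to 3.75 in P lines. The lists of respiratory chain and ATP synthase (81 transcripts), muscle (31), eye (33), synapse (32), pheromone synthesis (15), sex determination (23), dosage compensation (7) and insulin and juvenile hormone (17) held no call.

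The calls were spread unevenly over the chromosomes. On the X, 153 of 2188 transcripts were called (6.99%), with 43 higher and 110 lower in H, against 452 of 11267 (4.01%) on the 4 large autosomal arms. By arm, the autosomal shares were 5.36% on 2L, 3.73% on 2R, 2.63% on 3L and 4.34% on 3R. None of 82 transcripts of chromosome 4, which was not part of the line's haplotype, and none of 6 of the Y were called. The X carried 11 of the 20 called transcripts that reached a factor of 2, and 8 were autosomal, while 1 was unplaced. Lower calls outnumbered higher calls on each of the 5 large arms as the values were deposited. Neighbours were then counted in the order of measured genes. Of 597 called genes 99 had a called gene beside them (16.6%), against 1048 of 11296 genes not called (9.28%), but the arms differed. The share was 26.9% for called genes and 10.4% for others on 2L, 21.3% and 14.5% on the X, and 17.7% and 9.16% on 3R. It was lower for called genes on 2R (3.92% and 8.43%) and on 3L (2.94% and 5.67%), and none of these shares was tested. The densest stretch of 10 measured genes held 6 called genes, namely CG11227, Ser6, CG1304, CG1532, CG15449 and Mgstl on the X. A run of CG13793, CG13794 and CG13795 on 2L was lower in H by 0.32, 0.34 and 0.34.

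**Figure D4:**
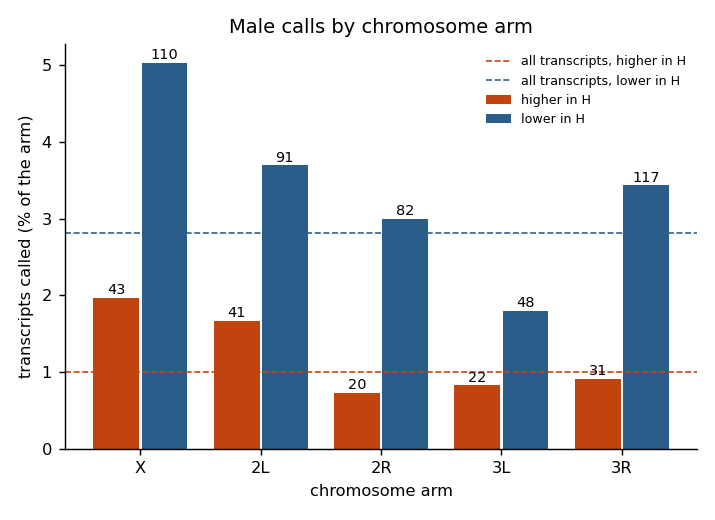
Share of the transcripts of each large chromosome arm called at an FDR of 0.05 between H and P males (percent of the arm's transcripts), higher in H (red) and lower in H (blue), with the number called above each bar and dashed lines for all transcripts. The X had the highest share in both directions, with 43 higher and 110 lower of 2188.

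Females of the same 15 lines, measured on the other 60 arrays, showed far fewer calls. There were 47 called transcripts in females (0.25% of 18769, with 2292 at an unadjusted p under 0.05), of which 26 were also called in males, with the same sign in each of the 26. These were 3.63% of the male calls and 55.3% of the female calls. Of the male calls, 127 of the 187 higher in H and 381 of the 529 lower in H had the same sign in females, but the median female difference of these groups was 0.045 and -0.037. The difference between the sexes was tested directly on the male minus female difference of each line, and it was called for 367 transcripts (1.96%), of which 233 were among the 716 male calls. The 716 were chosen by their male difference, which enters this contrast. Their smaller female differences and this overlap therefore follow in part from that choice. The female count was 29 without replicate 1 or 4, 110 without replicate 3 and 80 without P18, and the count of sex differences was 123 without replicate 1 and 150 to 240 without H07, H09, H10, H14, P07, P26 or P56. By arm, female calls were 19 on the X, 6 on 2L, and 4 on each of 2R, 3L and 3R. The male calls there were 153, 132, 102, 70 and 148. Females carry a second X chromosome drawn from the base population, whereas males do not. Whether this bears on the smaller number of female calls was not tested.

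Several leading genes were called in females too. CG11034 was the exception in size, since its difference was 2.34 in females (adjusted p = 1e-06) against 1.22 in males, and the male minus female contrast was -1.12 (adjusted p = 0.00021). CG2924 (0.41), CG3091 (-0.42), Cyp4d1 (-0.67), wgn (0.72), Ser6 (1.28) and CG1304 (2.40) were called in females with smaller differences than in males. For the first 5 of these the difference between the sexes was itself called, with adjusted p between 9.3e-05 and 0.048, and for CG1304 it was not (adjusted p = 0.053). Other genes had a difference in males and a female value near 0. These were CG6106 (-0.0003 in females, male minus female -0.85, adjusted p = 0.00021), CG32643 (0.06, 1.59, adjusted p = 0.015) and CG31091 (0.07, -1.05, adjusted p = 0.028). Their female group means were low, at 5.1 to 5.4, where a difference is harder to read. For CG32643 the male line means were 7.61 to 10.10, so its contrast rests largely on the males. CG11227 lay between 3.43 and 3.63 in the females of all 15 lines, near the bottom of the range, so that a difference between prefixes could not be read there, and its contrast of 1.29 (adjusted p = 0.0011) rests on the males. For fit the female difference was -0.95 (adjusted p = 0.17), and the sexes were not called different (adjusted p = 0.37).

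**Figure D5:**
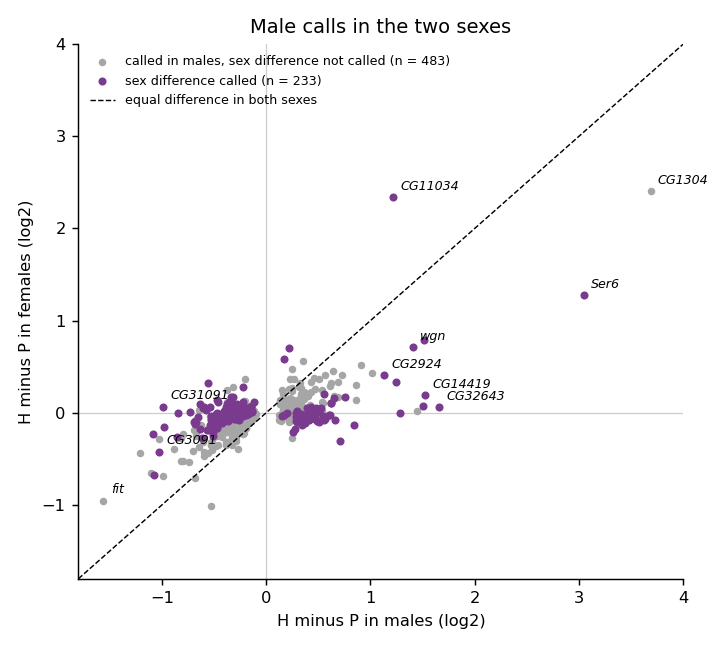
Difference H minus P in males (horizontal, log2) against that in females (vertical, log2) for the 716 transcripts called in males, with the 233 in purple whose difference between the sexes was called at an FDR of 0.05 and the line of equal differences dashed. Most points lie nearer to 0 on the female axis, and CG11034 lies above the line. The transcripts were chosen by their male difference, from which smaller female values follow in part.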

How the data were processed

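The deposited values are log2 expression values of 120 Affymetrix Drosophila Genome 2.0 arrays, which the authors computed with RMA in the affy package (background correction, quantile normalization, 1 summary per probe set). No version of either tool is given in the sources used here. Line, sex and replicate were read from the labels. Of 18952 probe sets, 183 controls were dropped and 18769, called transcripts, were tested with no filter. The annotation of the array gave 1 gene for 13647, several for 402 and none for 4720, and 13544 were updated by Entrez ID to RefSeq names of assembly Release 6. The 4 male arrays of a line were averaged, and limma (lmFit, eBayes) tested H minus P over 15 line means, two-sided, with Benjamini-Hochberg adjustment and an FDR of 0.05. Females were fitted likewise, and sex differences on male minus female line means. The replicates of a line are separate groups of 6 flies. The number of arrays limits the precision. The procedure was tested on simulated data.

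The lines, gene lists and tests were chosen with earlier results of these data known. Genes were named by rule, as the 12 largest differences in each direction among called transcripts with 1 gene (a gene counted once, by its smallest p), the 3 members of smallest p called in each list, and members behind a count of 5 or fewer. Lists of mitochondrial ribosomal proteins, tRNA synthetases, initiation factors and proteasome subunits, and 3 alternatives (without male arrays with Yp1 above 8, with the mean of the female transcripts as a covariate, without both H07 and H12), were added after seeing the data. No batch term was fitted, since no source gives the batch of an array. Alternatives were other scalings, filters, summaries, variance models, thresholds and array-level fits, and lines or replicates left out. R 4.3.3 with limma 3.58.1 and Python 3.11.15 with pandas 2.3.3, numpy 2.4.6 and matplotlib 3.10.9 were used.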

Additional observations from a re-analysis of the deposited data

Results flagged for a closer look

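Line means far from the rest of their prefix were sought by Dixon's criterion in the H and the P lines of 65 transcripts. Of 130 groups, 15 held such a line. Chance flags about 1 in 20 of independent, normally distributed groups, but here the same lines served all 65 transcripts. No excess over chance can be read from this count. Among genes higher in H, a P line stood high in CG1304 (P50, 8.907), CG11227 (P50, 5.412), wgn (P18, 8.848) and Muc4B (P07, 5.519). An H line stood low in Muc4B (H14, 3.437), wgn (H07, 8.547) and MtnD (H09, 9.394), and high in vri (H12, 9.995). Among genes lower in H, a P line stood low in Sardh (P26, 5.525) and Jon74E (P13, 12.94) and high in Pdfr (P22, 6.373). An H line stood low in Cyp4d1 (H09, 6.757), TotC (H07, 7.209), mRpL22 (H07, 8.603) and eIF3b (H09, 10.46). P50 was the exception in both CG1304 and CG11227, which lie on either side of Ser6 on the X.

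The difference between prefixes was itself different between the sexes, at an FDR of 0.05 on the line differences, for 32 of the 65 transcripts. Over all transcripts it was 367 of 18769 (1.96%). The 65 were chosen among male calls and the male difference enters this contrast, so their higher share follows in part from the choice. The values that follow are the male difference H minus P less the female one, on the log2 scale. For genes higher in H males they were 1.764 for Ser6, 1.594 for CG32643, 1.43 for lncRNA:CR40465, 1.327 for CG14419, 1.286 for CG11227, 0.9143 for MtnD, 0.7299 for CG6912, 0.7219 for CG2924 and 0.6906 for wgn. They were 0.6382 for del, 0.632 for Hsp60D and 0.366 for eIF3d2. In females the H and P means of CG11227, lncRNA:CR40465, Hsp60D and eIF3d2 were all under 5, near the bottom of the range. A female difference could hardly be read there, so these contrasts rest on the males. CG11034 had -1.122, since its excess in H was larger in females. For genes lower in H males the values were -1.053 for CG31091, -0.8546 for CG7567, -0.8453 for CG6106, -0.8225 for CG4408, -0.6037 for CG3091, -0.5908 for Sardh and -0.4035 for Cyp4d1. They were -0.452 for PGRP-SB1, -0.3019 for Pdfr, -0.2331 for Pdf, -0.2872 for Mtp and -0.2542 for mino. In translation they were -0.2994 for eIF2Bdelta, -0.2552 for eIF3g1, -0.1945 for eIF3b, -0.2089 for ArgRS, -0.2024 for mRpS28, -0.1859 for RpLP0 and -0.1705 for RpS21.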

How the results depend on the processing

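The number of male calls was 483 to 761, against 716, under median centring, renewed quantile normalization, a filter on low means, line medians, 1 transcript per gene, other variance models, a covariate for female transcripts, and without the arrays of high Yp1 or without H07 and H12. Arrays centred on the ribosomal protein median gave 7057 male calls, 4970 sex differences and 473 transcripts without overlap, and moved mRpS22 to 0.034, RpS30 to 0.014 and mRpL22 to 0.0071. All 60 arrays with line as a random block gave 2145 calls in males and 654 in females, and a replicate block added to that fit gave 2206 and 649. The labels do not say that a replicate number was shared between lines, and not every same-numbered pair correlated above 0.1, so the numbers were not used as pairs. Their deviations did share structure, with a median correlation of 0.087 to 0.157 for the same number and of -0.049 to -0.036 for other numbers, and 53 of 60 arrays were closest to their own number. An FDR of 0.1 gave 1336 male calls, 164 female calls and 997 sex differences, and an FDR of 0.01 gave 204, 17 and 52. With 1 transcript per gene 30 were called in females, and without H07 and H12 there were 205 sex differences. Leaving out a line or a replicate number gave 416 to 1051 male calls, 29 to 110 female calls, 123 to 449 sex differences, and 163 to 404 transcripts without overlap. Of the 65 transcripts chosen for naming, 35 were called under each such omission. The number of lines and the spread among the 6 H lines limit these values, and 61 of the 716 calls had a mean under 5, near the bottom of the range.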
